A study of Mus musculus with 6 samples.

Results

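The 9 genes described here encode complement components and their regulators. They are C1ra, C1s1, C2, C3, C4b, Cfb, Serping1, Cd55 and Cd59a, and they were chosen by symbol from the 31053 genes of the count tables, where each symbol had 1 entry. The cells were stromal vascular cells of mouse inguinal white adipose tissue (iWAT), the subcutaneous depot in which beige adipocytes form in the cold. Live cells were sorted and CD45+ immune cells were removed before droplet capture. All mice were C57BL/6, with no genetic change or drug, and all were held at 30 °C for 3 weeks before the groups were separated. The young mice were 9 weeks old and the aged mice 57 weeks old. At each age there was 1 library at thermoneutrality (TN, 30 °C throughout), 1 after 3 days at 6 °C (3D cold) and 1 after 14 days at 6 °C (14D cold). There were therefore 6 libraries and each age and temperature had 1, so no spread between replicates could be measured. The tests of age and of temperature use departures from additive effects of both, with 2 residual degrees of freedom and spread shared over genes. Such departures may be technical, or a real dependence of the age difference on temperature. The study's methods on cell isolation say that mice were pooled only where this was stated, and the number of mice behind each of these libraries was not given in the sources used here.

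Complement is a cascade of secreted proteases and their substrates that marks cells and debris for removal. In the classical pathway C1q activates C1r, which activates C1s, and C1s cleaves C4 and C2 to make an enzyme that splits C3. In the alternative pathway factor B, encoded by Cfb, binds C3b and is then cleaved by factor D, and the resulting complex splits more C3. Serping1 encodes the C1 inhibitor, which blocks C1r and C1s, Cd55 encodes decay accelerating factor, which takes the C3-splitting enzymes apart on the cell surface, and Cd59a encodes a surface protein that stops the terminal pore. In fat, factor D is made by adipocytes and is known as adipsin, and stromal fibroblasts are a known source of secreted complement proteins.

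The count tables held 68103 barcodes, of which 57326 passed the cell filter. Each library held between 52068837 and 88508349 unique molecular identifiers (UMIs), where 1 UMI stands for 1 captured transcript. Cells were clustered without the 9 genes and without the marker genes, and clusters were named from their markers. The 52072 named cells comprised 22191 Dpp4+ fibroblast-like cells (marked by Dpp4, Pi16 and Wnt2, among others), 20148 Icam1+ preadipocyte-like cells (Icam1, Col15a1, Lpl), 4035 Cd142+ fibroblast-like cells (F3, which encodes CD142, Clec11a and Gdf10), 4035 endothelial-like cells, 878 smooth muscle or pericyte-like (SMC/pericyte-like) cells, 374 Schwann-like cells and 411 immune-like cells that had passed the CD45 sort. They are called Dpp4+, Icam1+ and Cd142+ cells below, and the 3 together the fibroblast populations. Levels are given in CPM (counts-per-million), the share of a class's UMIs in 1 library that came from the gene, and log2 differences are aged minus young unless stated.

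A pair of libraries stood apart. In the aged 14D cold library the median barcode held 2588 UMIs against 6232 to 8954 in the others, and 33.2% of its cells fell into an unnamed cluster of low depth that took at most 2.26% of any other library. In the aged TN library 1 of the Dpp4+ clusters took 6.90% of the cells against 17.6% to 29.7% in the others. Pairs of libraries shared 30 to 44 barcodes, at most 0.379% of the smaller library, and doublets were not removed unless stated.

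Transcripts of 8 of the 9 members were highest on average in a fibroblast population, as the plot of level by cell class shows, and Cd59a was the exception. C1ra (chr6:124512405-124523443, + strand, mm10 with the GENCODE vM21 annotation, 11 exons) and C1s1 (chr6:124530345-124542359, − strand, 12 exons) encode the 2 proteases of the C1 complex and lie side by side. C1ra had a mean over 6 libraries of 410 CPM ± 23.6 (SD, n = 6) in Cd142+ cells, 348 ± 33.6 in Dpp4+ cells and 324 ± 18.1 in Icam1+ cells. The Dpp4+ range overlapped both of the others, while the Cd142+ and Icam1+ ranges did not meet. It was lower in Schwann-like cells (146 ± 41.7), SMC/pericyte-like cells (122 ± 18.9) and immune-like cells (82.8 ± 34.9), whose ranges overlapped each other. The endothelial-like cells had the lowest C1ra level, 26.6 ± 5.28 CPM, and their range overlapped that of no other class. C1s1 had the same order at its ends, with 815 ± 76.8 CPM in Cd142+ cells and 62.7 ± 21.9 CPM in endothelial-like cells. The Icam1+ cells (774 ± 77.6 CPM) and the Dpp4+ cells (675 ± 79.1 CPM) overlapped the Cd142+ range for C1s1, although the Cd142+ value was the higher in 6 of 6 libraries.

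**Figure D1:**
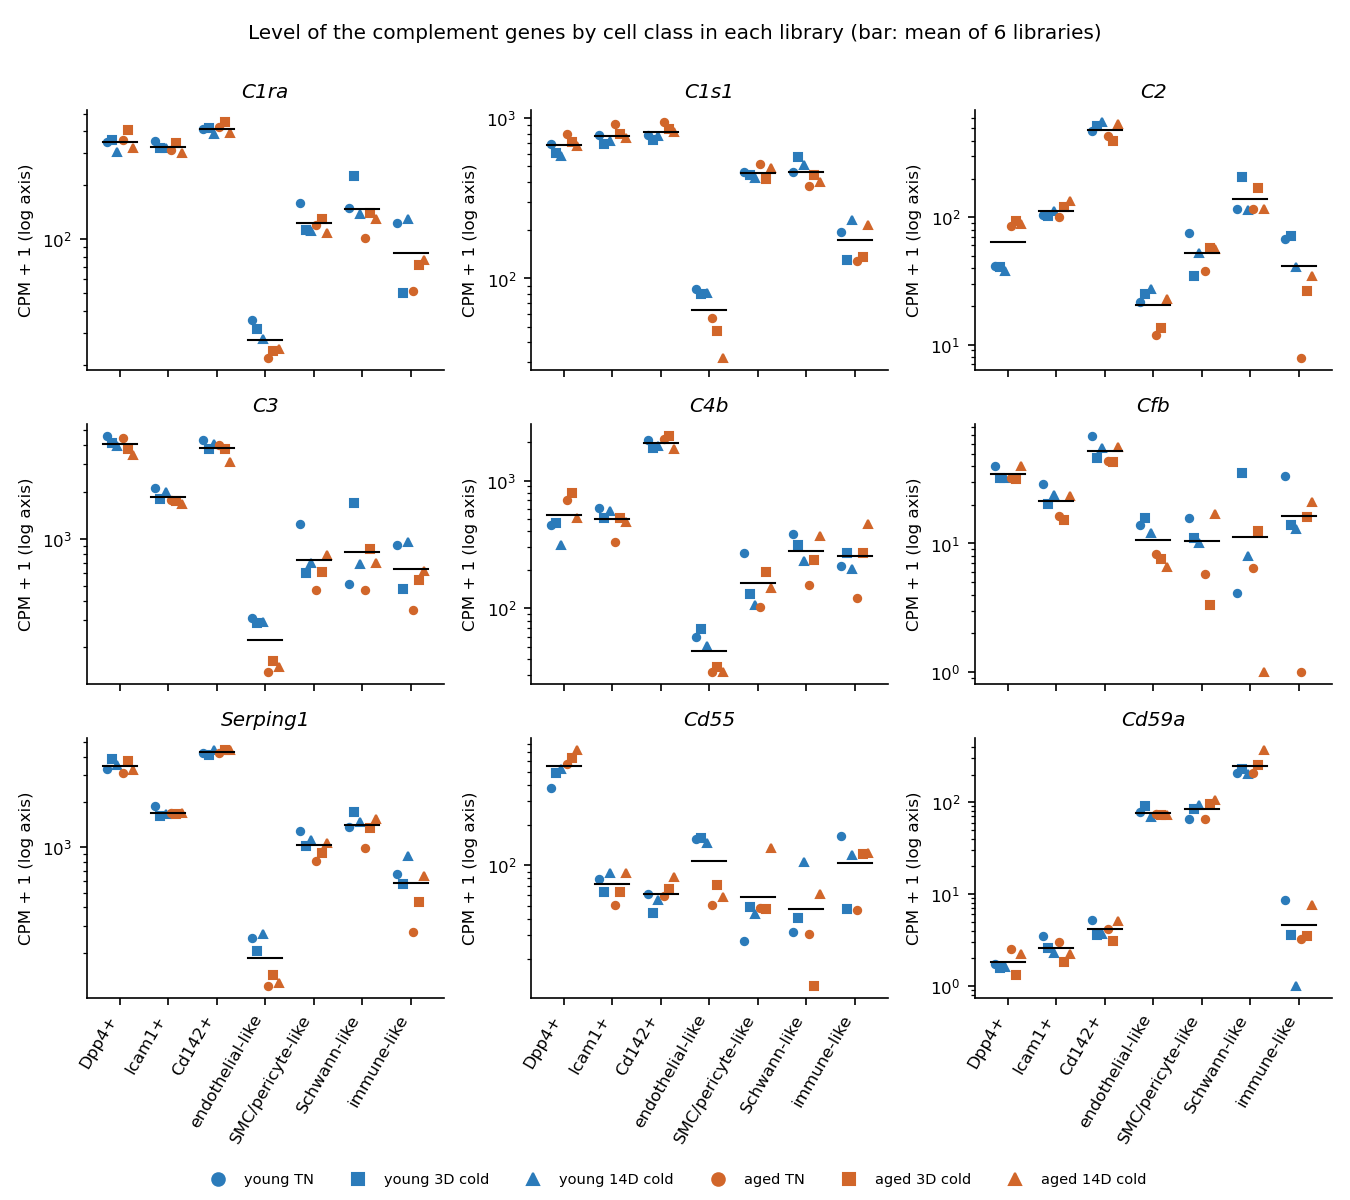
Level of each of the 9 genes (CPM + 1, log axis) in 7 cell classes, with 1 point per library (blue young, orange aged; circle TN, square 3D cold, triangle 14D cold) and a bar at the mean of 6 libraries. C3 and Serping1 are highest in the Dpp4+ and Cd142+ cells, C2 and C4b in the Cd142+ cells, Cd55 in the Dpp4+ cells, and Cd59a is near 1 CPM in the fibroblast populations and 245 CPM in the Schwann-like cells.

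C2 and C4b, the substrates of C1s, were highest in Cd142+ cells. C2 (chr17:34862604-34898265, − strand, 18 exons) had 486 ± 63.6 CPM there, against 111 ± 12.9 in Icam1+ cells and 63.4 ± 26.8 in Dpp4+ cells, and no 2 of these 3 ranges overlapped. Schwann-like cells had 138 CPM of C2, with a range that overlapped that of Icam1+ cells. The Cd142+ cells were 7.04% of the cells kept and held 29.2% of their C2 UMIs. C4b (chr17:34728380-34743882, − strand, 41 exons) had 1971 ± 198 CPM in Cd142+ cells, and the Dpp4+ cells (540 ± 179) and Icam1+ cells (503 ± 99.0) overlapped below them. C4b was lowest in endothelial-like cells at 45.3 ± 15.9 CPM. C2, C4b and Cfb lie in the major histocompatibility region, with 85 bases between the ends of Cfb and C2 and a transcript, Gm20547, that overlaps both on the same strand, so reads in the shared stretch are uncertain between them. The near-identical copy C4a was not analysed here, and reads common to it and C4b are uncertain.

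C3, on which all pathways converge, was high in a different pair of populations. C3 (chr17:57203970-57228136, − strand, 41 exons) had 4051 ± 419 CPM in Dpp4+ cells and 3840 ± 418 CPM in Cd142+ cells, with overlapping ranges, and 1847 ± 170 CPM in Icam1+ cells, whose range lay below both. Cfb (chr17:34856374-34862518, − strand, 18 exons) had 51.2 ± 9.96 CPM in Cd142+ cells, 33.9 ± 4.07 in Dpp4+ cells and 20.3 ± 5.08 in Icam1+ cells, and these 3 ranges did not overlap. Outside the fibroblast populations Cfb had 15.4 CPM or less on average, and it had 0 UMIs in the Schwann-like cells of the aged 14D cold library, which allows up to 20.2 CPM, and in the immune-like cells of the aged TN library, which allows up to 6.85 CPM.

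The 3 regulators had 3 different distributions. Serping1 (chr2:84765387-84775444, − strand, 8 exons) followed C3 with 4298 ± 132 CPM in Cd142+ cells, 3469 ± 294 in Dpp4+ cells and 1699 ± 92.1 in Icam1+ cells, without overlap between these populations. It had 1396 ± 244 CPM in Schwann-like and 1035 ± 162 CPM in SMC/pericyte-like cells. Both classes also held UMIs of fibroblast markers. Pdgfra, Col1a1, Dcn and Lum summed to 27378 to 41260 CPM in Schwann-like cells, against 15025 to 17664 CPM in Dpp4+ cells. Of the SMC/pericyte-like cells, 26.0% to 49.4% per library had UMIs of at least 2 of these markers. The part of such RNA in the levels of any member in these classes was not tested. Cd55 (chr1:130439027-130462744, − strand, 8 exons) had 554 ± 121 CPM in Dpp4+ cells and 107 ± 52.6 CPM or less in every other named class, and the Dpp4+ range lay above all of them. Within the endothelial-like class, however, a cluster led by Lrg1 and Plvap had 343 to 385 CPM of Cd55 in young libraries. Cd59a (chr2:104095801-104115354, + strand, 5 exons) was the reverse of the secreted components, with 245 ± 64.5 CPM in Schwann-like, 83.7 ± 16.4 in SMC/pericyte-like and 74.9 ± 7.57 in endothelial-like cells and between 0.834 and 3.13 CPM in the 3 fibroblast populations. Its copy Cd59b held 414 UMIs against 2975 of Cd59a, and the copies of the other members held less than 1% of their member's UMIs (Cd55b 671 UMIs, C1s2 168 and C1rb 68).

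Promoters were found for 5 of the 9 members, and those of C3, Cd55 and Cd59a are shown, as the central secreted component and the 2 surface regulators. Each runs from 250 bases before to 50 bases after the RefSeq start on GRCm38.p6, written 5′ to 3′ on the strand of the gene. Capitals mark the match to a motif searched on both strands. They are an NF-kB motif (GGAANNNCC) at positions -60 to -52 of Cd55, a C/EBP motif (TTGCNNAA) at -45 to -38 of C3 and an interferon response motif (AAANNGAAA) at -186 to -178 of Cd59a.
C3, chr17:57228087-57228386, − strand: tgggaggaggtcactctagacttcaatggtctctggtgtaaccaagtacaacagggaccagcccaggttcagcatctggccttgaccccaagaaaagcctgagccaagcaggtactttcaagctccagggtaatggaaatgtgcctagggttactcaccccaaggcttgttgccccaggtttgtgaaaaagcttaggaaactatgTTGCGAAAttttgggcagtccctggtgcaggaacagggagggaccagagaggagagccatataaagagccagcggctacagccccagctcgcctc
Cd55, chr1:130462695-130462994, − strand: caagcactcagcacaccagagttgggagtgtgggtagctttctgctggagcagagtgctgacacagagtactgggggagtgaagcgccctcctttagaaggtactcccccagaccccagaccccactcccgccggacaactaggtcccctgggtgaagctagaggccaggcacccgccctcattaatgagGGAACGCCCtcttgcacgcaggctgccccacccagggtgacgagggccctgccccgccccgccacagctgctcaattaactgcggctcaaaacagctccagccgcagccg
Cd59a, chr2:104095551-104095850, + strand: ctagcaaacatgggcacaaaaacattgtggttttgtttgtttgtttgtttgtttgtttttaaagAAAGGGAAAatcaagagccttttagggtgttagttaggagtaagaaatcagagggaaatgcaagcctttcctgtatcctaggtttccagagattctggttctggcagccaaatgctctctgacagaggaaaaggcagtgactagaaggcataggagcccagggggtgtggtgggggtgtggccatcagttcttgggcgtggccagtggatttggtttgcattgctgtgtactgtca
Of all 32851 promoters of this length, 18.5% held the NF-kB motif, 10.8% the C/EBP motif and 10.6% the interferon response motif, so a match in 1 promoter is a description and not a site. The C1ra and C1s1 promoters, the other 2 members found in the table, held a C/EBP match each, with a STAT match (TTCNNNGAA, in 8.30% of promoters) in C1ra and an NF-kB match in C1s1. The table has 2 starts for C1s1, and the C/EBP match lay only in the window of the first. No match of a 9-letter glucocorticoid response motif (ACANNNTGT, in 6.85% of promoters) was found in any of the 5. C2, C4b, Cfb and Serping1 were not among the promoters used.

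The same distributions were seen cell by cell. When each cell was thinned to 2000 UMIs, which left out 432 of 22191 Dpp4+ cells, C3 was detected in 99.0% and Serping1 in 99.2% of Dpp4+ cells. In endothelial-like cells, the class of lowest C3 level, at the same depth these shares were 13.4% and 11.2%. C2 was detected in 54.0% of Cd142+ cells, 19.3% of Icam1+ cells, 10.7% of Dpp4+ cells and 1.99% of endothelial-like cells. Cd55 was detected in 55.5% of Dpp4+ cells, 10.3% of Icam1+ cells and 9.59% of Cd142+ cells, and Cd59a in 24.2% of Schwann-like cells and 12.7% of endothelial-like cells against 0.147% of Dpp4+ cells. Without thinning the shares rose with depth, to 30.2% of Dpp4+ cells for C2 and 84.5% for Cd55. Together the 9 genes supplied 1.18% of the UMIs of a Cd142+ cell, 0.971% of a Dpp4+ cell, 0.528% of an Icam1+ cell and 0.0463% of an endothelial-like cell at this depth.

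Over the 30 sums of the 5 classes with enough cells for a test (6 libraries each, which share depth and RNA of neighbouring droplets), C3 and Serping1 were the most alike of the members on a log2 scale (Pearson r = 0.977). C2 and C4b had r = 0.927, and Cd59a was negative with every other member, from -0.431 with Cd55 to -0.867 with C3. Cd55 stood outside the group, with r between -0.196 and 0.359 with the 7 secreted members. Among 6077 other genes of at least 20 CPM, a pattern among the most like C3 was that of Scara5, a scavenger receptor (r = 0.985). For C2 the most alike were Sned1 (0.952) and F3 (0.949), a marker used to name the Cd142+ cells, for C4b Abi3bp (0.979) and Inmt (0.968), and for Serping1 Ecm1 (0.981) and Dapk1 (0.980). For Cd55 they were Bag1 (0.924) and Usp18 (0.907), for Cd59a Trib2 (0.988) and Tinagl1 (0.985), for C1ra Rnase4 (0.992) and Celf2 (0.989), and for C1s1 Sdc2 (0.992) and Lrp1 (0.981). Cpz was among those most like Cfb (0.919).

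The first comparison asked how age changed these genes within each population. In Dpp4+ cells 3 of the 9 members were higher in aged mice and none was lower (all 9 were tested), where 8.93% of the 13363 genes tested were higher and 8.91% lower at an adjusted p under 0.05. C2 had 40.4, 40.0 and 36.7 CPM in the young TN, 3D cold and 14D cold libraries and 84.3, 91.6 and 87.4 CPM in the aged libraries in the same order. Every aged library was above every young one, and C2 rose by 1.14 on the log2 scale (SE 0.06, edgeR quasi-likelihood adjusted p = 2.89e-06). Within the temperatures the difference was 1.04 at TN, 1.17 at 3D cold and 1.23 at 14D cold on the log2 scale, and the call held under all 20 alternatives tried, with differences from 1.07 to 1.40.

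C4b, the other substrate of C1s, was also higher in aged Dpp4+ cells. It had 450, 467 and 310 CPM in the young TN, 3D cold and 14D cold libraries and 706, 796 and 511 CPM in the aged ones. The ages did not overlap, and C4b rose by 0.68 (SE 0.06, edgeR adjusted p = 9.12e-05). Cd55, the surface regulator, had 378, 492 and 521 CPM in the young and 569, 637 and 728 CPM in the aged libraries, again without overlap, and rose by 0.45 (SE 0.06, edgeR adjusted p = 0.00122). The age difference of Cd55 was about the size of its difference between temperatures, and each aged library was above the young library of its own temperature. Without temperature in the model C2 still passed, while C4b (edgeR adjusted p = 0.0621) and Cd55 (edgeR adjusted p = 0.109) did not. That fit called 789 of 13046 genes in either direction.

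At equal depth the share of Dpp4+ cells with a UMI moved the same way. C2 was detected in 6.73%, 6.89% and 7.11% of young cells (TN, 3D cold and 14D cold) and in 15.1%, 15.7% and 16.6% of aged cells, with exact 95% intervals no wider than 13.6% to 16.6% and 15.3% to 17.9% in the aged TN and 14D cold libraries. C4b was detected in 34.9% to 46.2% of young and 52.0% to 61.6% of aged Dpp4+ cells. These intervals cover counting error only.

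The other 6 members did not pass in Dpp4+ cells. C3 had 4582, 4108 and 3936 CPM in young and 4449, 3763 and 3470 CPM in aged libraries, a log2 difference of -0.15 (SE 0.08, edgeR adjusted p = 0.23), and Serping1 had 3329, 3859 and 3531 CPM in young and 3111, 3742 and 3238 CPM in aged libraries, a difference of -0.12 (SE 0.07, edgeR adjusted p = 0.318). Both ranges overlapped between the ages. C1s1 had a difference of 0.18 (SE 0.06, edgeR adjusted p = 0.0658), C1ra 0.06 (SE 0.06), Cfb -0.03 (SE 0.10) and Cd59a, near 1 CPM, 0.56 (SE 0.37). The median over the 9 members was 0.18, against 0.00 over all genes tested.

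The Dpp4+ cells comprised mainly 2 clusters, one of 11906 cells led by Cxcl13 and Smpd3 and one of 10081 cells led by Dmkn, Krtdap and Sbsn, and the share of the first was 27.4% in the aged TN library and 52.5% to 62.6% in the other 5. C2 and C4b were higher in the first cluster (C2 45.3 to 54.6 CPM in young libraries) than in the second (22.3 to 23.4 CPM), and Cd55 was lower there (257 to 371 against 560 to 780 CPM). Fitted within each cluster, the age difference of C2 was 1.25 and 1.40 (edgeR adjusted p = 9.88e-06 and 3.76e-07) and that of C4b 0.91 and 0.90 (edgeR adjusted p = 3.35e-05 and 1.24e-06). That of Cd55 was 0.23 in the first cluster, where it no longer passed (edgeR adjusted p = 0.101), and 0.28 in the second (edgeR adjusted p = 0.00456). C1s1 passed within each of them, at 0.25 and 0.24 (edgeR adjusted p = 0.0317 and 0.0147). In these fits 1766 of 12590 and 1541 of 12208 genes were called in either direction.

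RNA of other cell types in these cells moved with age too. Adipocyte transcripts (Adipoq, Plin1, Cfd, Car3, Retn, Cidec) summed to 6.38 to 13.2 CPM in young and 15.8 to 28.4 CPM in aged Dpp4+ cells, and 5 of 5 tested were higher in aged. Macrophage transcripts summed to 7.55 to 17.2 CPM in young and 16.7 to 20.3 CPM in aged, with 1 of 6 tested higher and none of the 11 at 0. C2, C4b and Cd55 stayed called when cells with immune RNA were left out, and the part of the adipocyte RNA was not tested.

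**Figure D2:**
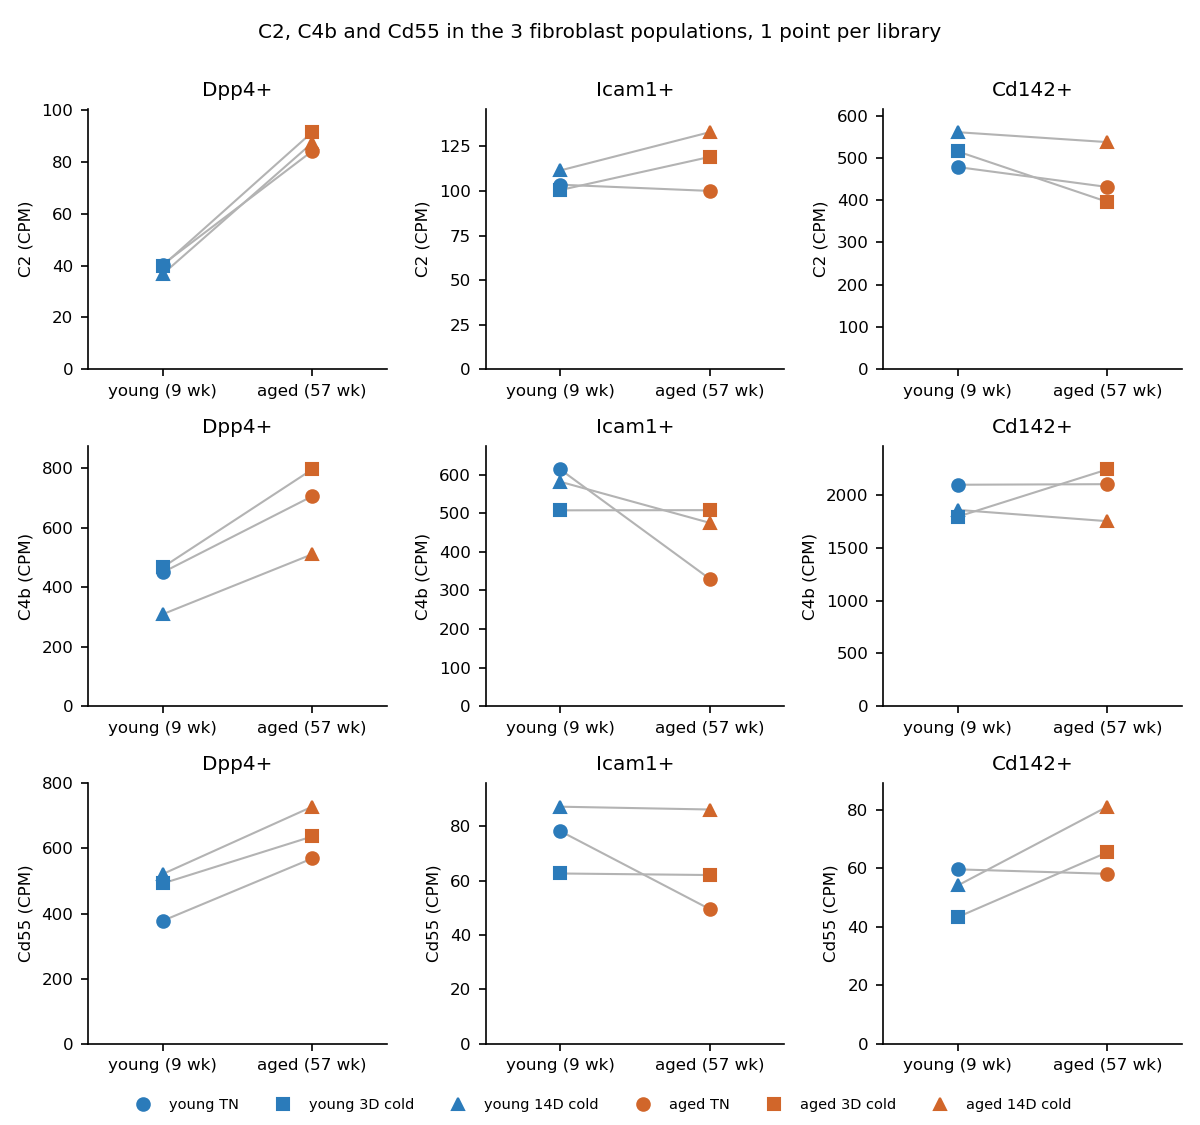
Levels of C2, C4b and Cd55 (CPM, linear axes from 0) in young and aged libraries of the Dpp4+, Icam1+ and Cd142+ cells, with a line joining the libraries of 1 temperature. In Dpp4+ cells all 3 lines rise for each gene. In Cd142+ cells the 3 lines of C2 fall, and the lines of C4b do not share a direction in Icam1+ or Cd142+ cells.

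In Icam1+ cells none of the 9 members passed by edgeR's quasi-likelihood test, although 2 had an unadjusted p under 0.05 and DESeq2 called none, where 7.52% of 13516 genes were higher and 6.41% lower in aged mice. C2 had 104, 100 and 112 CPM in young and 100, 119 and 133 CPM in aged Icam1+ cells, with overlapping ranges (log2 difference 0.16, SE 0.08). C4b had 613, 507 and 581 CPM in young and 330, 508 and 475 CPM in aged libraries (-0.38, SE 0.15, edgeR adjusted p = 0.139). The aged TN library was the lowest, and the aged 3D cold library lay within the young range. Cfb had the lowest adjusted p, with 27.8, 19.2 and 22.9 CPM in young and 15.4, 14.2 and 22.3 CPM in aged libraries (-0.44, SE 0.14, edgeR adjusted p = 0.0714).

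Leaving out single libraries changed these calls in Icam1+ cells, and so did the choice of cells. Without either TN library C2 was called higher (0.27, edgeR adjusted p = 0.0223). Without the young or the aged 3D cold library C4b was called lower (-0.60, edgeR adjusted p = 0.00078 and 0.00194), and so was Cfb (-0.46, edgeR adjusted p = 0.0284 and 0.0455). Cfb was also called lower without the young or the aged 14D cold library (-0.64, edgeR adjusted p = 0.0282 and 0.0158). Leaving out 1 library of a temperature leaves its partner fitted exactly, so such pairs of values are close by construction.

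In the larger cluster of Icam1+ cells alone (12710 cells, led by Cxcl14, Col15a1 and Lamc3), 3 members passed, where 1690 of 12775 genes were called in either direction. C4b was lower by 1.11 on the log2 scale there (edgeR adjusted p = 0.00224), Cfb by 0.63 (edgeR adjusted p = 0.00841) and Cd55 by 0.59 (edgeR adjusted p = 0.000978). In the other cluster (7438 cells, led by Scg3 and Tfpi2) C4b differed by -0.08 and did not pass, and C2 was higher by 0.39 (edgeR adjusted p = 0.0101), where 1232 of 12178 genes were called. Whether the age difference itself differed between these 2 clusters was not tested. The smaller cluster made up 49.9% of the Icam1+ cells in the aged 14D cold library and 32.7% to 37.6% in the other libraries. Its mean levels were higher than those of the larger cluster for C4b (805 against 300 CPM) and Cd55 (116 against 40.1 CPM).

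In Cd142+ cells 1 of the 9 members passed, where 6.17% of 11173 genes were higher and 5.61% lower. Cd55 had 59.7, 43.3 and 54.2 CPM in young and 58.1, 65.5 and 81.1 CPM in aged libraries, a log2 difference of 0.40 (SE 0.12, edgeR adjusted p = 0.0388). The ages overlapped, since the aged TN library lay below the young TN library, and the call was lost without either 3D cold library (0.27) or the aged 14D cold library (0.31, edgeR adjusted p = 0.0631). DESeq2 did not call Cd55 either (DESeq2 adjusted p = 0.334). Cfb, which did not pass with all 6 libraries, was called lower without the young or the aged 14D cold library (-0.36, edgeR adjusted p = 0.00914 and 0.0173). C2, which was higher in this population than in any other, had 478, 515 and 561 CPM in young and 431, 396 and 537 CPM in aged Cd142+ cells (-0.17, SE 0.08, edgeR adjusted p = 0.205). C4b had 2093, 1792 and 1856 CPM in young and 2099, 2238 and 1749 CPM in aged libraries (0.10, SE 0.10). C1s1 was the only member whose ages did not overlap there, with 727 to 783 CPM in young and 815 to 947 CPM in aged libraries, and did not pass (0.22, SE 0.08, edgeR adjusted p = 0.0968).

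The difference between populations was then tested directly, as the interaction of age and population with the library as a block. The age difference of C2 was smaller in Icam1+ than in Dpp4+ cells by 0.97 on the log2 scale (edgeR adjusted p = 0.00232), 1 of 9 members in a comparison that called 1.79% of genes. It was smaller in Cd142+ than in Dpp4+ cells by 1.33 (edgeR adjusted p = 1.13e-05), and that of C4b by 0.59 (edgeR adjusted p = 0.0194), in a comparison that called 1.76%. That difference of C4b no longer passed without the young 14D cold library (-0.43, edgeR adjusted p = 0.107) or without the aged 3D cold library (-0.54, edgeR adjusted p = 0.0842). The age difference of Cd55 was larger in Cd142+ than in Icam1+ cells by 0.63 (edgeR adjusted p = 0.00608), where 2.04% of genes were called. C4b in Icam1+ against Dpp4+ cells differed by -1.06 (SE 0.25) and did not pass (edgeR adjusted p = 0.0712). For C3, C1ra and Serping1 no pair of populations passed, and the differences lay between -0.10 and 0.17. The populations come from the same libraries, so these 3 comparisons share their samples.

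**Figure D3:**
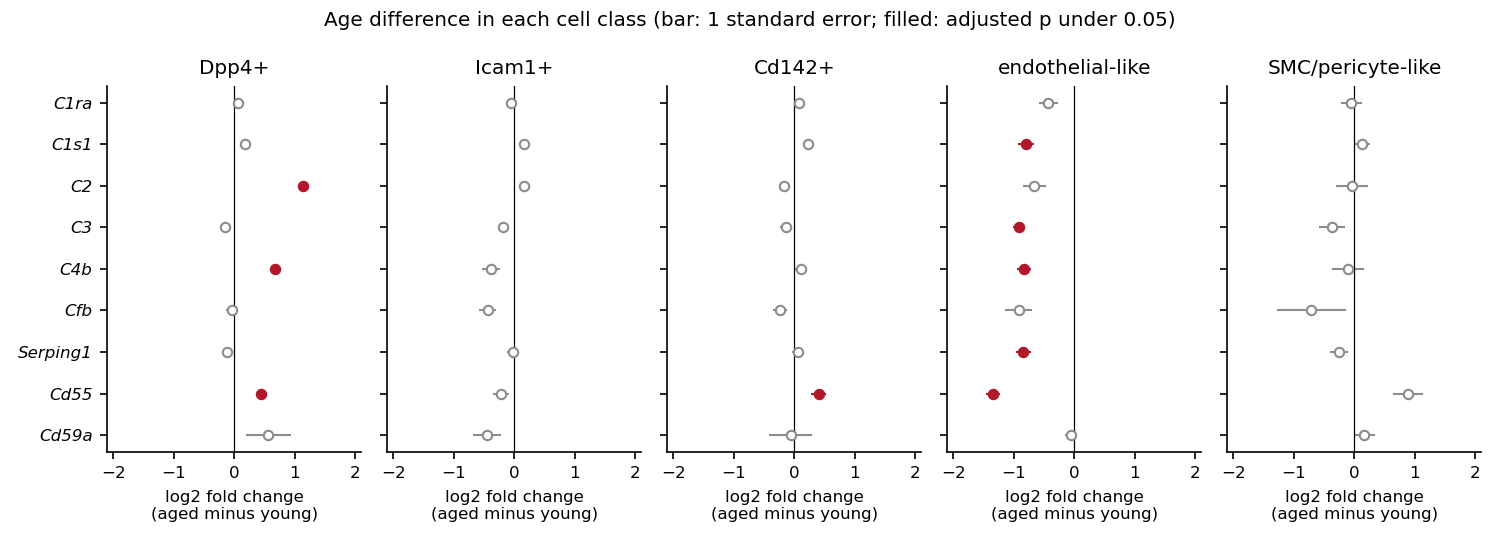
Log2 difference between aged and young mice (aged minus young, edgeR fit with temperature in the model) for the 9 genes in 5 cell classes; bars show 1 standard error and filled points an adjusted p under 0.05. C2, C4b and Cd55 pass to the right of 0 in Dpp4+ cells and C1s1, C3, C4b, Serping1 and Cd55 pass to the left of 0 in endothelial-like cells.

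In endothelial-like cells 5 of the 9 members were lower in aged mice and none was higher, where 1.74% of 10838 genes were lower and 0.775% higher. Cd55 had 155, 160 and 147 CPM in the young TN, 3D cold and 14D cold libraries and 49.7, 70.5 and 57.0 CPM in the aged ones, and fell by 1.35 on the log2 scale (SE 0.11, edgeR adjusted p = 0.000763). C3 had 309, 284 and 291 CPM in young and 138, 163 and 150 CPM in aged libraries, and fell by 0.92 (SE 0.10, edgeR adjusted p = 0.00206). Serping1 had 250, 204 and 266 CPM in young and 119, 140 and 124 CPM in aged libraries (-0.84, SE 0.12, edgeR adjusted p = 0.01). For these 3 genes every aged library lay below every young one. The median log2 difference of the 9 members was -0.84, against 0.00 over all genes tested.

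The 2 other members that passed were expressed at lower levels. C4b had 58.9, 68.1 and 49.4 CPM in young and 30.9, 33.8 and 31.0 CPM in aged libraries (-0.84, SE 0.12, edgeR adjusted p = 0.00922), and C1s1 had 85.3, 78.6 and 79.9 CPM in young and 55.3, 45.9 and 31.0 CPM in aged libraries (-0.80, SE 0.14, edgeR adjusted p = 0.0205). Both were without overlap between the ages. Cd59a, the member that endothelial-like cells shared with Schwann-like and SMC/pericyte-like cells, had 77.0, 89.1 and 67.7 CPM in young and 73.4, 71.2 and 71.2 CPM in aged libraries (-0.06, SE 0.10). The ages overlapped for Cd59a. Without the young or the aged TN library C3 and Cd55 passed, while C1s1 (edgeR adjusted p = 0.0735 and 0.0883), C4b (edgeR adjusted p = 0.0824 and 0.0954) and Serping1 (edgeR adjusted p = 0.0975 and 0.119) did not. Those fits called 89 of 11282 and 61 of 11273 genes in either direction, fewer than the fit with all libraries. The lost calls therefore do not set these members apart from the rest.

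The share of endothelial-like cells with a UMI of C3 or of Serping1 did not separate the ages at equal depth. C3 was detected in 14.1% to 18.9% of the cells of young libraries and in 8.93% to 18.1% of those of aged libraries, and Serping1 in 11.4% to 13.9% and 7.98% to 18.1%. In both cases the aged 14D cold library had the highest share among the aged libraries. The share of UMIs from the 9 genes together did separate the ages at this depth. It was 0.0586%, 0.0603% and 0.0629% in the young TN, 3D cold and 14D cold libraries and 0.0322%, 0.0353% and 0.0489% in the aged ones.

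**Figure D4:**
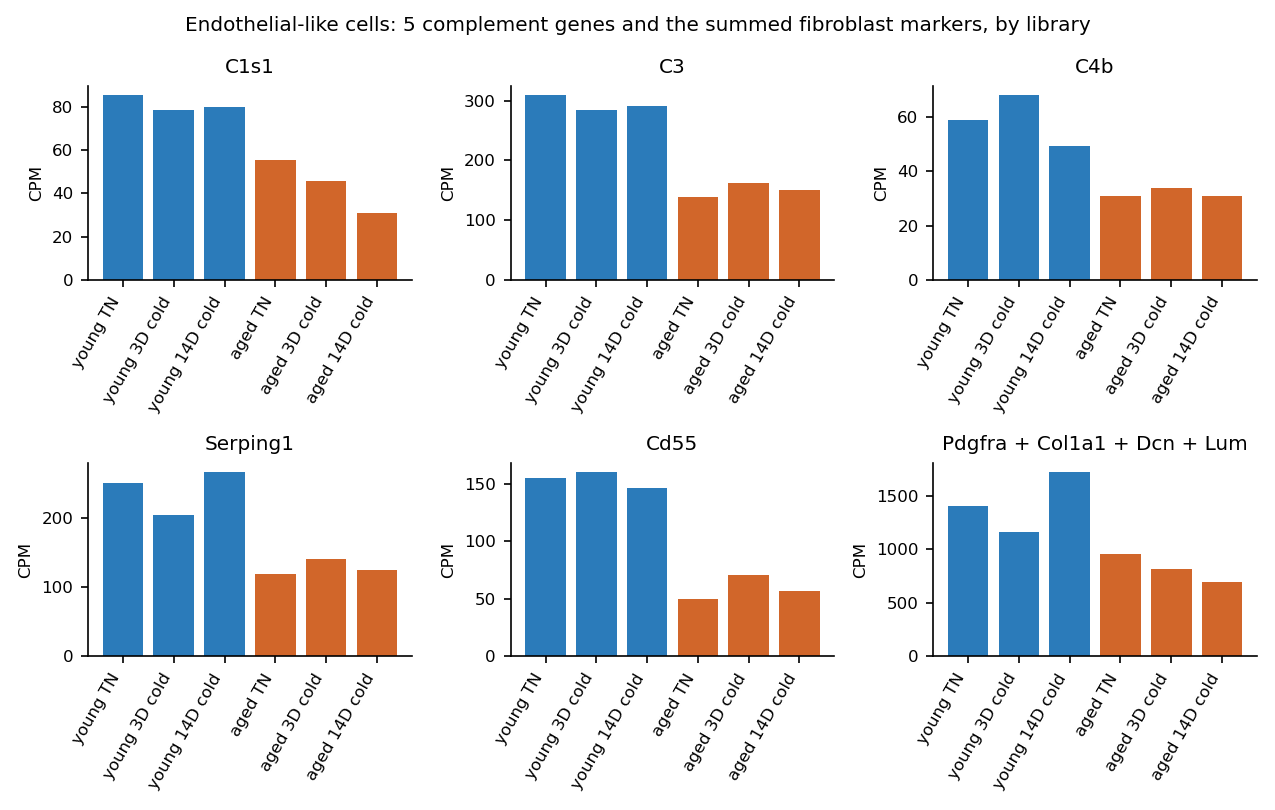
Levels (CPM, bars from 0) in the endothelial-like cells of each library (blue young, orange aged) of the 5 members that passed and of 4 fibroblast markers summed. All 5 members and the fibroblast sum are lower in each aged library than in any young one.

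Fibroblast markers in the endothelial-like cells moved the same way. The fibroblast markers Pdgfra, Col1a1, Dcn and Lum summed to 1162 to 1727 CPM in young and 696 to 958 CPM in aged endothelial-like cells (none of the 4 at 0), and 2 of the 4 were called lower. Cells with UMIs of at least 2 of these markers made up 16.7% to 23.9% of the young and 7.63% to 20.9% of the aged endothelial-like cells. Col1a1 also differed with age within the fibroblast populations, by -1.90 in Dpp4+, -0.74 in Icam1+ and -1.90 in Cd142+ cells, against -1.97 here. Dcn went the other way in those populations (0.25, 0.36 and 0.47) and differed by -0.41 here. A lower sum thus does not by itself show less fibroblast RNA in aged cells. Leaving out cells with at least 2 of these markers need not act alike at both ages. Without those cells 3 members passed: Cd55 at -1.94 (edgeR adjusted p = 3.30e-07), C3 at -0.84 (edgeR adjusted p = 0.0131) and Cfb at -1.25 (edgeR adjusted p = 0.0405), while C4b (-0.03), Serping1 (-0.14) and C1s1 (-0.25) did not, and 236 of 9961 genes were called. This comparison was added after the first results were seen. Macrophage transcripts summed to 68.1 to 102 CPM in young and 42.3 to 68.1 CPM in aged endothelial-like cells, with 1 of 5 tested lower in aged, and adipocyte transcripts had 2 of 6 higher; their part in the result was not tested.

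The calls in endothelial-like cells also depended on which cells were pooled. The class held a cluster of 3225 cells led by Cldn5 and Gpihbp1 and a cluster of 810 cells led by Lrg1 and Plvap, and the second made up 23.5% to 26.2% of the young and 9.38% to 20.8% of the aged endothelial-like cells. Cd55 had 343 to 385 CPM in the second cluster in young libraries and 120 to 250 CPM in aged ones, against 15.3 to 31.0 CPM in the first cluster at either age. Within the first cluster Cd55 differed by -0.02 and C3 by -1.11, and within the second Cd55 differed by -0.99 (edgeR adjusted p = 0.0419) and C3 by -0.35. In these fits 145 of 9555 and 61 of 9011 genes were called in either direction. When cells were classed one by one from their own markers, or clustered at a finer resolution, none of the 9 members passed. Those fits called only 30 of 11879 and 19 of 11426 genes in either direction. With so few calls, the lack of a call cannot set the members apart from the rest. C1s1, C2 and C4b had differences above 0 under both settings. The classes built in these ways had a mean of 1460 and 732 CPM of C3, against 223 CPM here.

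In SMC/pericyte-like cells none of the 9 members passed by edgeR or DESeq2 (1 had an unadjusted p under 0.05), where 0.654% of 8709 genes were higher and 0.39% lower. Serping1 had 1277, 1022 and 1116 CPM in young and 810, 919 and 1067 CPM in aged libraries (-0.26, SE 0.14). Cd55 had the largest difference, 0.88 (SE 0.25, edgeR adjusted p = 0.109), and rested on the aged 14D cold library, which had 134 CPM against 26.3 to 48.2 CPM in the other 5. It passed without either TN library (0.90) and without either 3D cold library (1.37). Schwann-like and immune-like cells, with 42 to 110 cells per library, were not tested.

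The second comparison asked how cold exposure changed these genes. In Dpp4+ cells 2 of the 9 members differed between temperatures with age in the model, where 6.17% of genes did. C4b differed from TN by 0.10 (SE 0.08) at 3D cold and by -0.49 (SE 0.08) at 14D cold (edgeR adjusted p = 0.0058 for both together), and the 14D cold library was the lowest of the 3 at both ages. Cd55 was above TN by 0.25 (SE 0.08) at 3D cold and by 0.43 (SE 0.08) at 14D cold (edgeR adjusted p = 0.0316), and at both ages its order was TN, 3D cold, 14D cold. With 2 libraries per temperature these differences have few degrees of freedom. Neither passed without the age term, but that fit called 0 of 13363 genes, so it cannot set these 2 genes apart from the rest. Cd55 also did not pass without the young TN library. These values pool the 2 main Dpp4+ clusters, whose shares differed in the aged TN library, and temperature was not tested within them. In the aged TN, 3D cold and 14D cold libraries C4b had 1180, 1088 and 767 CPM in the first cluster and 537, 480 and 313 CPM in the second. Cd55 had 268, 436 and 434 CPM in the first and 681, 856 and 957 CPM in the second.

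In the other 4 classes no member passed for temperature by edgeR's test or DESeq2. The share of all genes called was 5.31% in Icam1+ cells, 2.67% in Cd142+ cells, 0.572% in endothelial-like cells and 0.551% in SMC/pericyte-like cells, and 2, 1, 0 and 2 members had an unadjusted p under 0.05. Cd55 in Icam1+ cells was 0.47 (SE 0.15) above TN at 14D cold and did not pass (edgeR adjusted p = 0.135). Without a single library some of these genes passed, in fits that left 1 library at that temperature. More genes over all were also called in each fit listed next than with all libraries. These calls therefore do not set the members apart from the rest. In Icam1+ cells Cd55 passed without either TN or either 3D cold library, Cfb without either TN library, and C2 and C4b without the young TN library. In Cd142+ cells Cfb passed without the young 14D cold library. In SMC/pericyte-like cells Cd55 passed without either TN library, the aged 3D cold or the young 14D cold library, C4b without either TN library and C3 without the aged TN library. C2 in Cd142+ cells was 0.28 (SE 0.10) above TN at 14D cold (edgeR adjusted p = 0.205). C2 in Dpp4+ cells differed from TN by 0.03 at 3D cold and by -0.03 at 14D cold on the log2 scale (SE 0.07 for each) and did not pass.

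The other 45 complement genes found in the tables give the setting. In Dpp4+ cells 21 were tested, and with age 9 rose and 3 fell. Of 17 tested in Icam1+ cells 7 rose and none fell, and in Cd142+ cells 17 were tested, 5 higher and 2 lower, while none of 10 passed in endothelial-like or SMC/pericyte-like cells by edgeR. The shares of all genes called higher and lower were 8.93% and 8.91% in Dpp4+, 7.52% and 6.41% in Icam1+ and 6.17% and 5.61% in Cd142+ cells. The subunits of C1q (C1qa, C1qb, C1qc), which start the classical pathway, had means over 6 libraries of at most 0.495 CPM in the fibroblast populations, with at most 2.24 CPM in any library, and means of 658 to 1073 CPM in immune-like cells. Cfi, which cleaves C3b, had 1.86 ± 0.411 CPM (SD, n = 3) in young and 0.289 ± 0.251 CPM (SD, n = 3) in aged Cd142+ cells, without overlap. It was called lower there at these low levels (-2.54, SE 0.73, edgeR adjusted p = 0.0338). It had at most 0.0319 CPM in any library of Dpp4+ or Icam1+ cells.

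Clu, which encodes clusterin, an inhibitor of the terminal complex, was higher in aged mice in all 3 populations, by 0.35 in Dpp4+, 0.72 in Icam1+ and 0.69 in Cd142+ cells on the log2 scale.

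C7, part of the terminal pore, moved in opposite directions. It had 87.8, 39.6 and 42.9 CPM in young and 55.2, 25.6 and 38.9 CPM in aged Dpp4+ cells, and fell by 0.51 (SE 0.09, edgeR adjusted p = 0.00347). In Cd142+ cells it had 252, 151 and 160 CPM in young and 396, 264 and 346 CPM in aged libraries and rose by 0.88 (SE 0.09, edgeR adjusted p = 1.19e-05), and in Icam1+ cells it rose by 1.12 (SE 0.10, edgeR adjusted p = 0.000473). The difference between the populations was not tested for C7. C7 also differed with temperature in all 3, and was lower than TN at 3D cold by 1.15, 1.61 and 0.66 in Dpp4+, Icam1+ and Cd142+ cells.

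The remaining genes that passed with at least 5 CPM in one age were fewer. Cfd, which encodes adipsin and is also on the adipocyte list above, rose by 1.20 in Dpp4+ and by 1.89 in Icam1+ cells at levels of at most 10.7 CPM. Colec12, a collectin receptor, rose by 0.26 and 0.22 in these populations and C1qbp, a C1q binding protein, by 0.23 in Dpp4+ and 0.34 in Cd142+ cells. Vtn, which encodes vitronectin, fell by 0.45 in Cd142+ cells, and Csmd1, a membrane regulator, rose there by 1.16, from 11.8 to 25.9 CPM. Hc, which encodes C5, rose in Icam1+ cells from 1.85 to 5.80 CPM. Cd55b, the copy of Cd55, had 2.55 CPM in young and 4.98 CPM in aged Dpp4+ cells and rose by 0.98 (edgeR adjusted p = 0.00309), in the same direction as Cd55.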

How the data were processed

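Single-cell libraries of 10x 3′ chemistry were made from CD45-depleted stromal vascular cells of iWAT, 1 per age and temperature. The deposited files hold raw UMI counts per gene and barcode, which the authors made with Cell Ranger 3.1.0 (version per the file headers) against mm10. The submitters' processing notes also name Seurat and R 4.1.1, which were not applied to the counts used here.

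Barcodes with more than 200 genes, within 3 median absolute deviations of their library's median UMIs and genes and not above it by more in mitochondrial share, were kept. Cells were clustered by the Leiden method (leidenalg 0.10.2, scikit-learn 1.9.0, Python 3.11.15; 6000 variable genes, 15 components, 20 neighbours, resolution 0.5, best of 5 starts). A cluster took a name when at least 3 markers and 50% of a list were detected in at least 10% of its cells. The mean level of each such marker also had to be at least 1.5 times that in the other cells. Before clustering, mitochondrial share and cell cycle scores were regressed out and genes scaled within each library.

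Counts were summed per library and class and tested with edgeR 4.0.16 (quasi-likelihood F test, TMM factors, filterByExpr, R 4.3.3), with temperature and age in the model and each class fitted alone. P-values were adjusted by the Benjamini-Hochberg method over all genes tested, with a threshold of 0.05. The interaction of age and population was fitted with the library as a block. Scripts were tested on simulated data. Alternatives included DESeq2 1.42.0 and leaving out each library. Shares are of cells thinned to 2000 UMIs, with exact (Clopper-Pearson) 95% intervals, and a count of 0 was given the limit of 3 counts. Depth ranged from 52068837 to 88508349 UMIs per library, and intervals and limits cover counting error only.

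The members and lists were chosen with earlier results of these data known. Genes named were the 9 members, other complement genes that passed for age in a fibroblast population at 5 CPM or more or that copy a member, and the 2 genes most like each member. The C1q subunits and Cfi were named after their values were seen. Some genes that met this rule are not reported here.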

Additional observations from a re-analysis of the deposited data

Results flagged for a closer look

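The age difference of a gene differed between fibroblast populations in 4 cases, by the test of the interaction of age and population (edgeR quasi-likelihood, with the library as a block and adjustment over all genes tested). For C2 the log2 difference between aged and young mice in Icam1+ cells minus that in Dpp4+ cells was -0.97, and in Cd142+ cells minus Dpp4+ cells it was -1.33. For C4b the value in Cd142+ cells minus Dpp4+ cells was -0.59. For Cd55 the value in Cd142+ cells minus Icam1+ cells was 0.63. The cause of these differences was not tested.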

How the results depend on the processing

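No pairing by replicate was possible because the labels carry no replicate numbers, and numbers used here follow accession order. Young and aged libraries were compared within temperatures through the temperature term. The first clustering start and the exclusion of cells with fibroblast RNA were chosen after seeing the data. Counts below are of the 9 members called by the test named, and the cause of a change was not tested. For age in Dpp4+ cells 3 members passed, against 1 without the temperature term and 4 at the first clustering start or in the second largest cluster. Over all genes these settings called 789 of 13046, 1926 of 13017 and 1541 of 12208. In Icam1+ cells none passed, against 2 with no filter on low counts, at resolution 1.0 or without high doublet scores, 3 at the first clustering start, with fixed cell limits or in the largest cluster, 1 with cells classed one by one, in the second largest cluster or with equal cells at 2000 UMIs, and 1 to 2 when 1 library was left out. Genes called overall in Icam1+ cells ranged from 273 of 13219 without the temperature term to 2532 of 20254 with no filter. There C2 turned to -0.00895 with fixed cell limits and -0.0196 in the largest cluster, and Cd55 ranged from -0.35 to 0.00931 when 1 library was left out. In Cd142+ cells 1 passed, against 0 by DESeq2, without the temperature term, at the first clustering start, at resolution 1.0 or with cells classed one by one, 2 with fixed cell limits, and 0 to 2 when 1 library was left out. Calls over all genes in Cd142+ cells ran from 447 of 17440 by DESeq2 to 1682 of 12418 at the first clustering start. In endothelial-like cells 5 passed, against 0 at resolution 1.0 or with cells classed one by one, 7 with no filter on low counts, 4 by DESeq2, 3 with fixed cell limits, without high doublet scores, without cells with fibroblast RNA or in the largest cluster, 1 in the second largest cluster, 2 with equal cells, and 2 to 5 when 1 library was left out. Genes called overall in endothelial-like cells ranged from 19 of 11426 at resolution 1.0 to 892 of 18091 with no filter. There C1s1 turned to 0.12 at resolution 1.0 and 0.20 with cells classed one by one, C2 to 0.22 and 0.54, and C4b to 0.19 and 0.47. In SMC/pericyte-like cells none passed, against 1 with no filter and 0 to 1 when 1 library was left out, and Cd55 turned to -0.0136 at resolution 0.3. From 6 of 3767 genes with equal cells to 377 of 11077 with fixed cell limits were called there. For temperature 2 passed in Dpp4+ cells, against 0 without the age term and 1 to 2 when 1 library was left out. Without the age term 0 of 13363 genes were called in that class. None passed in Icam1+ cells (3 with no filter, 0 to 4 when 1 library was left out), Cd142+ cells (0 to 1) or SMC/pericyte-like cells (1 with no filter or with fixed cell limits, 0 to 3). Over all genes, calls in Icam1+ cells ran from 0 of 13516 without the age term to 2096 of 20254 with no filter. In Cd142+ cells they ran from 3 of 11173 without the age term to 818 of 11529 without the young 14D cold library. The limits in SMC/pericyte-like cells were 1 of 8709 without the age term and 489 of 11077 with fixed cell limits. For the interaction of age and population 4 differences passed, against 9 with no filter, 5 by DESeq2 and 3 to 6 when 1 library was left out. The share of all genes called under these interaction alternatives is not given here. Of 373 single-gene age differences under alternatives, 278 kept their direction and their side of the threshold. The 373 cover only members and classes with a call in at least 1 setting. Depth limits the smaller classes, since the comparison with equal cells had 89 SMC/pericyte-like cells per library.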
